A study of Apis mellifera with 12 samples.

Results

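The comparison described here sets the brains of foragers against those of nurses in single-cell libraries whose cells were summed. Brains of adult *Apis mellifera* workers were pooled, dissociated with papain and run as 10x Genomics libraries, with 2 libraries of foragers and 2 of nurses. Foragers were taken with pollen on their hind legs, and nurses were workers seen entering cells to feed larvae, both from the same colony. The labels give no genotype or age for either group, and each library was a pool of brains on a chip of its own. Barcodes with 200 to 5000 genes, at least 500 UMIs and less than 15% of UMIs in features prefixed MT- were kept, where a UMI marks 1 captured RNA molecule. This left 20652 and 22019 forager cells and 20155 and 20606 nurse cells, 83432 of the 121460 cells that passed in the 6 single-cell libraries. All 4 worker libraries were used, of 12 samples in the series, and the 2 queen libraries entered the fit, in its filter, scaling and estimate of spread, but not the contrast. The UMIs of all kept cells were summed per library, so that a difference in how many cells express a gene and a difference in RNA per cell cannot be told apart.

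Nursing and foraging are successive tasks of a worker's life. The hypopharyngeal glands, which lie in the head beside the brain, make the major royal jelly proteins while a bee nurses and turn to sugar-processing enzymes when it forages. In the brain the mushroom bodies, built of Kenyon cells, serve learning and memory. Neuropeptides and biogenic amines, which are slow messengers released by small sets of neurons, tune behaviour over longer times, and juvenile hormone is known to be higher in foragers than in nurses.

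The forager sums came to 145094990 and 136610037 UMIs and the nurse sums to 142275448 and 133937595. Median depth was 4718 to 5354 UMIs per cell, and worker libraries shared 106 to 142 cell barcodes in pairs. The neuronal marker *elav* (*LOC410689*) was at 3402 to 3994 CPM in every worker library, where CPM is a gene's UMIs on a common library total, after scaling by the trimmed mean of M values (TMM). *repo* (*LOC410151*), the marker of glia, was at 67.3 and 112 CPM in foragers and 68.4 and 102.6 CPM in nurses. Replicates of a caste therefore differed more in this glial marker than the castes did. Over 7189 genes with a mean of at least 10 CPM, the median absolute difference on the log2 scale was 0.08 between the forager libraries, 0.12 between the nurse libraries and 0.15 between the caste means.

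Few genes passed the threshold of the edgeR test with 2 libraries a caste. An unadjusted p under 0.05 was reached by 2732 genes (24.4% of those tested). Of 11208 genes tested, 9 were called (0.0803% of those tested), which required an adjusted p below 0.01 and an absolute log2 fold change above 0.5. Of these 3 were higher in foragers (0.0268%) and 6 higher in nurses (0.0535%). The nurse-higher genes were *Mrjp1*, *Mrjp2*, *Mrjp3*, *Mrjp4*, *LOC102654896* and *LOC100578445*, and the forager-higher genes were *LOC724752*, *LOC102655536* and *LOC102654729*. The test was edgeR's quasi-likelihood test over 3 castes, with Benjamini-Hochberg adjustment over all genes tested. DESeq2 called 149 genes higher in foragers (1.41%) and 335 higher in nurses (3.17%), together 4.59% of the 10556 genes it gave an adjusted p, and all 9 edgeR genes were among them. Leaving out any 1 of the 4 worker libraries left 1 or 2 edgeR calls, *Mrjp3* in every case and *Mrjp2* where a forager library was left out. Without the royal jelly protein genes edgeR called 0 genes, with 2723 at an unadjusted p under 0.05, and the other 5 genes then lay at adjusted p of 0.0103 to 0.01726.

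**Figure D1:**
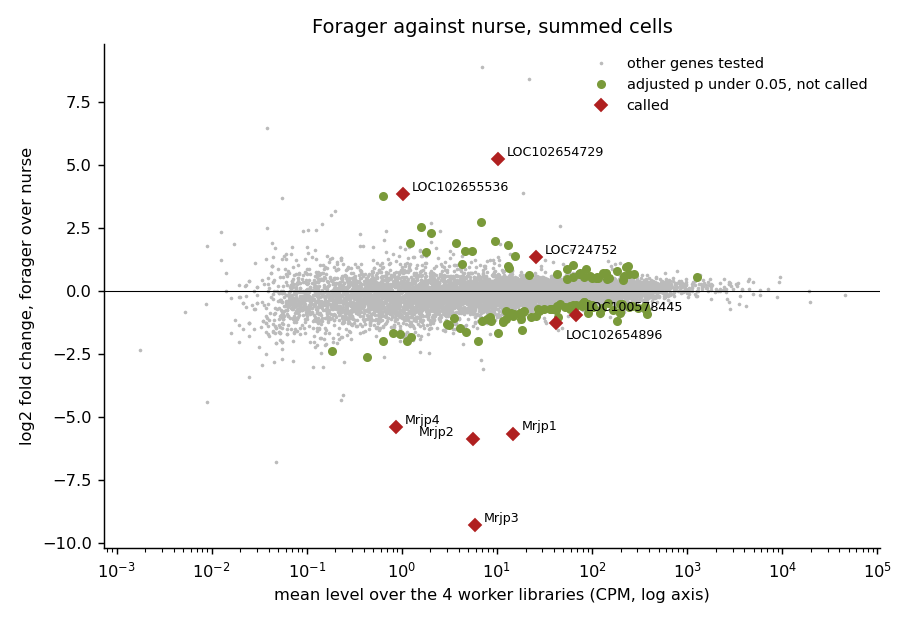
Log2 fold change, forager over nurse, against the mean level over the 4 worker libraries in CPM on a log axis, for every gene tested. The 9 called genes are diamonds and the genes with an adjusted p under 0.05 that were not called are filled circles. The 4 called royal jelly protein genes lie between -5.42 and -9.30.

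The clearest difference was in the genes of the major royal jelly proteins, secreted proteins with which nurses feed larvae and queens. *Mrjp1*, which encodes the most abundant protein of royal jelly, was at 0.550 and 0.594 CPM in the forager libraries and at 27.7 and 30.5 CPM in the nurse libraries. *Mrjp2* was at 0.238 and 0.132 CPM in foragers and 10.3 and 11.95 CPM in nurses. *Mrjp3* was at 0.0136 and 0.0220 CPM in foragers and 12.1 and 11.3 CPM in nurses. In each of the 3 genes both nurse libraries lay far above both forager libraries, and the nurse libraries lay close to each other.

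The fitted log2 fold changes were -5.67 ± 0.43 (SE, adjusted p = 0.00411) for *Mrjp1*, -5.90 ± 0.33 (adjusted p = 0.00104) for *Mrjp2* and -9.30 ± 0.40 (adjusted p = 0.000277) for *Mrjp3*. *Mrjp4*, at 1.81 and 1.57 CPM in nurses, gave -5.42 ± 0.39 (adjusted p = 0.00311). The forager values rest on few molecules. *Mrjp3* had 2 and 3 UMIs in the forager libraries against 1725 and 1600 in the nurse libraries, a ratio of 663 with an exact 95% interval of 284 to 2044 for counting error alone. *Mrjp4* had 7 and 4 UMIs against 259 and 222, a ratio of 43.6 with an interval of 24.2 to 87.9. Intervals of this kind cover no variation between bees.

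The rest of the family was mixed. *Mrjp5* was at 0.428 and 0.763 CPM in foragers and 2.02 and 4.55 CPM in nurses (log2 -2.46 ± 0.47, adjusted p = 0.0519). *Mrjp7* was at 0.754 and 1.32 CPM in foragers and 2.45 and 2.87 CPM in nurses (log2 -1.36 ± 0.33, adjusted p = 0.0815). *Mrjp6* had the opposite order, with 0.489 and 0.704 CPM in foragers and 0.147 and 0.0991 CPM in nurses (log2 2.27, adjusted p = 0.0511). *Mrjp8* lay at 0.411 to 0.638 CPM throughout, and *Mrjp9* had 1 to 5 UMIs a library and was not tested. Of the 8 members tested 4 were called, all nurse-higher, beside 0.0535% of all genes tested. All 8 had castes that did not overlap, which 59.6% of all genes tested did too. On Amel_HAv3.1 the genes stand in 1 stretch of chromosome 11, with *Mrjp3* at 2268450 to 2272030, *Mrjp1* at 2274667 to 2277905, *Mrjp4* at 2280526 to 2284092 and *Mrjp2* at 2301533 to 2304856. They are copies of one another, so that a single member's value is uncertain to the degree that reads were shared between copies.

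**Figure D2:**
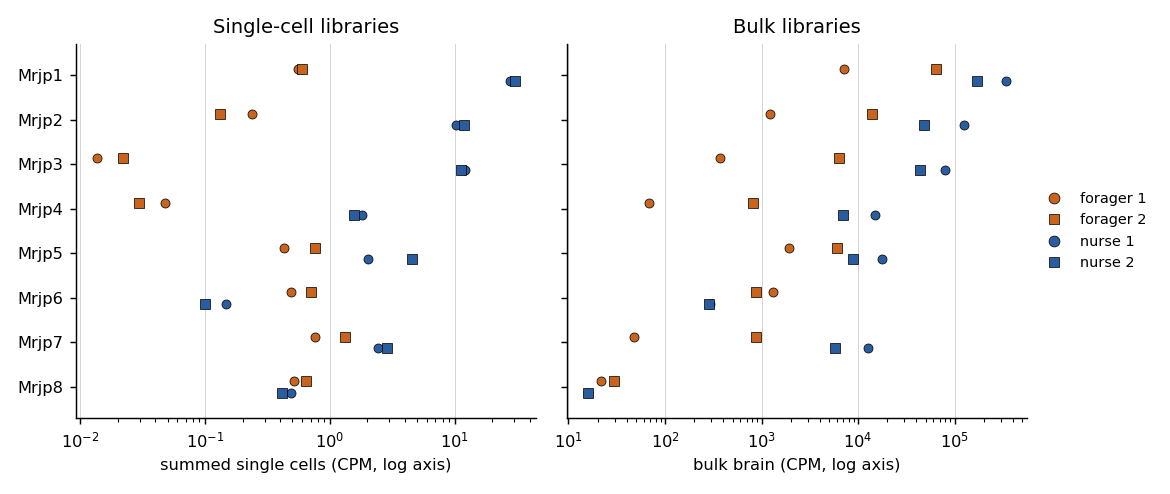
Level of the 8 tested royal jelly protein genes in each worker library, in summed single cells on the left and in bulk brain on the right, both in TMM-scaled CPM on log axes. *Mrjp1* to *Mrjp5* and *Mrjp7* lie higher in both nurse libraries of each kind, and *Mrjp6* lies higher in both forager libraries.

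Within the nurse libraries these UMIs were spread thinly over many cells. A UMI of *Mrjp1* was found in 14.96% and 16.2% of nurse cells and in 0.378% and 0.354% of forager cells. The cells with 5 or more such UMIs numbered 25 and 34 and held 12.6% and 10.0% of the *Mrjp1* UMIs of their library, and no forager cell had more than 3. Among nurse cells with at least 2 UMIs of *repo*, 19.8% and 22.6% had a UMI of *Mrjp1*, against 13.9% and 15.02% of those with none, at median depths of 5170.5 and 5168 against 5238.5 and 5164.5 UMIs. Its level there was 55.6 and 43.0 CPM, against 23.2 and 29.4 CPM in the cells with none. In the 25% of nurse cells richest in *PLCe* (*LOC408804*), a Kenyon cell marker, *Mrjp1* was at 22.3 and 25.5 CPM, and in the poorest 25% at 21.7 and 23.3 CPM. At least 2 *PLCe* UMIs were found in 95.8% and 97.8% of forager cells and 97.0% and 94.9% of nurse cells. The richest and poorest 25% were therefore set by the share of *PLCe* UMIs after the data had been seen. They do not cleanly separate Kenyon cells from others. Outside the cells with 5 or more UMIs, which left 87.4% and 90.0% of the *Mrjp1* UMIs, its level was 24.4 and 28.96 CPM. No cells known to lack the gene were available within the nurse libraries to give a background share, so these values are not read as expression by cell type, and the part of free RNA was not tested.

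The marker list of the hypopharyngeal gland moved with caste by the same genes. Its summed level was 32.7 and 33.5 CPM in foragers and 69.3 and 105 CPM in nurses. Of its 9 tested markers 4 were called, the same 4 *Mrjp* genes as above, beside 0.0803% of all genes tested. *Hbg3*, an alpha-glucosidase that the gland makes in foragers, was at 29.6 and 29.3 CPM in foragers and 12.3 and 42.1 CPM in nurses, so that the nurse libraries enclosed both forager values. *Mrjp9* was the marker that was not tested. The part of gland RNA in the *Mrjp* UMIs was not tested.

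Beside the royal jelly genes, a pair of genes of higher level was lower in foragers. *LOC100578445* (protein-coding, chromosome 1, 5071914 to 5077640) was at 47.2 and 45.8 CPM in foragers and 89.7 and 91.0 CPM in nurses. *LOC102654896* (a long noncoding RNA, chromosome 8, 3572129 to 3601502) was at 26.1 and 23.3 CPM in foragers and 57.7 and 61.9 CPM in nurses. In both the replicates lay close together and the castes far apart.

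The log2 fold changes were -0.96 ± 0.08 (adjusted p = 0.00680) for *LOC100578445* and -1.28 ± 0.12 (adjusted p = 0.00962) for *LOC102654896*. A UMI of *LOC100578445* was found in 24.6% and 21.7% of forager cells and in 38.3% and 39.0% of nurse cells. *LOC102654896* was rarer in the cells richest in *PLCe*, at 5.65 and 7.17 CPM of the richest 25% in foragers and 13.7 and 17.5 CPM in nurses. In the poorest 25% it was at 35.6 and 26.5 CPM and at 71.8 and 77.5 CPM, so that nurses were higher at both ends. The files and the annotation give neither gene a function.

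**Figure D3:**
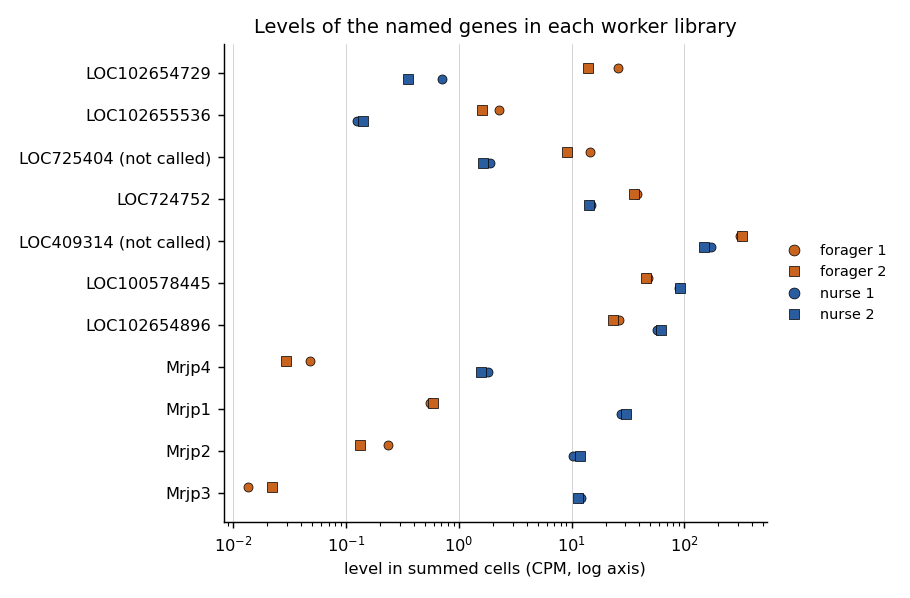
Level in CPM on a log axis of the 9 called genes and of the 2 genes with the next smallest p among the forager-higher ones, in each of the 4 worker libraries. Circles are replicate 1 and squares replicate 2. *LOC724752* stands at 35.5 and 37.7 CPM in foragers and at 14.2 and 14.7 CPM in nurses.

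Among the forager-higher genes, *LOC724752* (protein-coding, chromosome 14, 2630211 to 2643257) had the smallest p. It was at 37.7 and 35.5 CPM in foragers and 14.7 and 14.2 CPM in nurses, a log2 fold change of 1.34 ± 0.09 (adjusted p = 0.00311). A UMI of it was found in 17.7% and 14.97% of forager cells and in 8.21% and 7.86% of nurse cells. In the 25% of cells poorest in *PLCe* it was at 57.5 and 51.6 CPM in foragers and 19.0 and 18.9 CPM in nurses, and in the richest 25% at 12.97 and 12.4 CPM and 6.29 and 7.09 CPM. It was therefore lower in the cells richest in the Kenyon marker in all 4 libraries, and higher in foragers at both ends.

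*LOC102655536* (a long noncoding RNA, chromosome 11, 2470877 to 2474144) was scarce, with 334 and 217 UMIs in foragers and 18 and 20 in nurses. These correspond to 2.27 and 1.59 CPM and to 0.126 and 0.142 CPM, a log2 fold change of 3.84 ± 0.34 (adjusted p = 0.00896). No cell held more than 2 of its UMIs.

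*LOC102654729* (protein-coding, chromosome 2, 2482754 to 2496930) passed the test through single cells. Its level was 25.7 and 14.1 CPM in foragers and 0.706 and 0.354 CPM in nurses, a log2 fold change of 5.22 ± 0.48 (adjusted p = 0.00962). In the first forager library 1 cell held 3275 of its 3775 UMIs, and in the second 1 cell held 1811 of 1917. No kept nurse cell had more than 3. With the highest cell of every gene taken off each sum, an alternative chosen after the data had been seen, its log2 fold change was 2.03 (adjusted p = 0.142). Among the barcodes that the filters had removed, the first nurse library held most of its UMIs, 1733 over all barcodes against 101 in kept cells, and over all barcodes the log2 fold change was 1.72 (adjusted p = 0.422).

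The gene with the largest forager-higher value at a mean over 10 CPM was not called, and is named here because its values were seen. *LOC412162* (protein-coding, chromosome 7, 3807388 to 3813373) was at 49.3 and 38.4 CPM in foragers and 0.112 and 0.142 CPM in nurses. UMIs of it were in 27.5% and 19.5% of forager cells and in 0.0695% and 0.0922% of nurse cells, so that it was close to present or absent by library. The queen libraries stood apart from each other, at 0.341 and 25.04 CPM. The 3-caste fit gave 8.43 ± 1.83 (adjusted p = 0.0612), and the fit of the 4 worker libraries alone gave 8.44 ± 0.22 (adjusted p = 7.35e-05). That fit ended the calls of *LOC102654896*, *LOC100578445*, *LOC102654729* and *LOC102655536*, at adjusted p of 0.0119 to 0.0158. *LOC107964775*, a long noncoding RNA whose span (3812434 to 3813357) lies inside that of *LOC412162*, had the same pattern, with 15.1 and 12.5 CPM in foragers and 0.0210 and 0.0354 CPM in nurses. In bulk brain *LOC412162* was at 51.6 and 47.2 CPM in foragers and at 61.3 and 7.81 CPM in nurses, where 1 nurse library was as high as the foragers.

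A looser adjusted p under 0.05 held 127 genes (1.13% of those tested), 45 forager-higher (0.401%) and 82 nurse-higher (0.732%). Their median absolute log2 fold change was 0.87 and 0.86, against 0.20 over all genes. The following were chosen from them after their values were seen, for the functions that their names carry. Genes of receptors for transmitters lay on both sides. *LOC410979*, described as a GABA type B receptor, was at 145 and 138 CPM in foragers and 227 and 286 CPM in nurses (log2 -0.86 ± 0.12, adjusted p = 0.0332). *LCCH3*, in Drosophila a subunit of GABA-gated channels, was at 69.9 and 70.4 CPM in foragers and 118 and 109.5 CPM in nurses (log2 -0.70, adjusted p = 0.0259). The serotonin receptor gene *5-HT1* was at 265 and 257 CPM in foragers and 180 and 162 CPM in nurses (log2 0.61, adjusted p = 0.0332). The serotonin receptor gene *5-HT2alpha* had the other order, with 13.8 and 11.2 CPM in foragers and 24.3 and 21.0 CPM in nurses (log2 -0.86, adjusted p = 0.0494).

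Genes of the cell surface and its matrix were also among the 127. *LOC552340*, a glypican-4 and so a heparan sulfate proteoglycan, was at 90.7 and 78.7 CPM in foragers and 43.9 and 40.1 CPM in nurses (log2 1.01, adjusted p = 0.0269). Agrin (*LOC409949*), another proteoglycan, was at 92.6 and 87.3 CPM against 60.2 and 51.5 CPM. DE-cadherin (*LOC410585*), a molecule of cell adhesion, was at 19.4 and 21.6 CPM in foragers and 37.4 and 33.4 CPM in nurses. Matrix metalloproteinase-2 (*LOC409383*), which cuts extracellular matrix, was at 39.8 and 42.1 CPM against 65.2 and 61.0 CPM. Since these genes were taken from those with a small p, that their castes did not overlap, as in 59.6% of all genes, adds nothing to it.

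*LOC725404*, the fifth forager-higher gene by p, was at 14.5 and 9.11 CPM in foragers and 1.89 and 1.65 CPM in nurses (log2 2.74 ± 0.30, adjusted p = 0.0208). Its neighbour on chromosome 5, the actin gene *LOC551176*, was at 16.0 and 14.3 CPM against 3.797 and 3.78 CPM (log2 2.001, adjusted p = 0.0332). In contrast to *LOC724752*, *LOC725404* was higher in the cells richest in *PLCe* than in the poorest. In the richest 25% it was at 34.4 and 21.0 CPM in foragers and 3.44 and 2.92 CPM in nurses. In the poorest 25% it was at 2.05 and 1.67 CPM and at 1.07 and 0.869 CPM.

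None of the 24 neuropeptide genes was called by edgeR, 10 had an unadjusted p under 0.05, beside 24.4% of all genes tested, and 20 had a fitted value above 0, beside 5397 of the 11208 genes tested. These shares over all genes are the background for the same counts in the lists that follow. Their median log2 fold change was 0.42, against -0.01 over all genes tested, and their summed level was 2315 and 2429 CPM in foragers and 1640 and 1602 CPM in nurses. The castes did not overlap in 11 of the 24, a lower share than the 59.6% of all genes. DESeq2 called 5, all forager-higher, beside 1.41% of all genes that it gave an adjusted p. That share, and the 3.17% called nurse-higher, are likewise the background for the DESeq2 counts in the lists that follow.

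Prohormone-3 (*LOC726472*), the most abundant, made up much of that sum, at 931 and 1065 CPM in foragers and 563.5 and 602 CPM in nurses (log2 0.78, adjusted p = 0.0504). Prohormone-2 (*LOC409314*) was at 314 and 324 CPM in foragers and 174 and 148 CPM in nurses (log2 0.99 ± 0.11, adjusted p = 0.0208). A UMI of prohormone-2 was in 67.6% and 69.2% of forager cells and in 52.9% and 47.2% of nurse cells. Both prohormones were thus broadly detected and close between replicates. Allatostatin A (*Apime-ASTA*), in cockroaches an inhibitor of juvenile hormone synthesis, was at 9.52 and 13.9 CPM in foragers and 5.80 and 4.25 CPM in nurses (log2 1.22, adjusted p = 0.0528). Tachykinin (*Tk*), at 297.5 to 377.5 CPM, and prohormone-4 (*LOC409241*), at 191 to 218 CPM, had castes that overlapped.

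In other peptide genes single cells held much of the sum in some libraries. Corazonin (*Crz*) was at 142 and 3.51 CPM in the forager libraries and 68.1 and 9.59 CPM in the nurse libraries, and 1 cell of the first nurse library held 7245 of its 9740 UMIs. In the first forager library its UMIs were spread wider, with 80.1% in 927 cells of 5 or more and 12.9% in the highest cell. Myosuppressin (*LOC726861*) was at 12.3 and 25.4 CPM in foragers and 75.5 and 16.8 CPM in nurses, with 7607 of 10794 UMIs of the first nurse library in 1 cell and 1.27% of those of the second nurse library in its highest cell. The SIFamide-related peptide (*LOC100578023*) was at 62.0 and 8.39 CPM in foragers and 3.27 and 1.501 CPM in nurses, and 1 cell of the first forager library held 5623 of 9121 UMIs. The 2 libraries of at least 1 caste differed widely in each of these genes. With the highest cell of each gene taken off, the SIFamide-related peptide had a log2 fold change of 2.84 in place of 3.88, and neither passed. The median of the 24 genes was then 0.44, with 19 above 0.

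**Figure D4:**
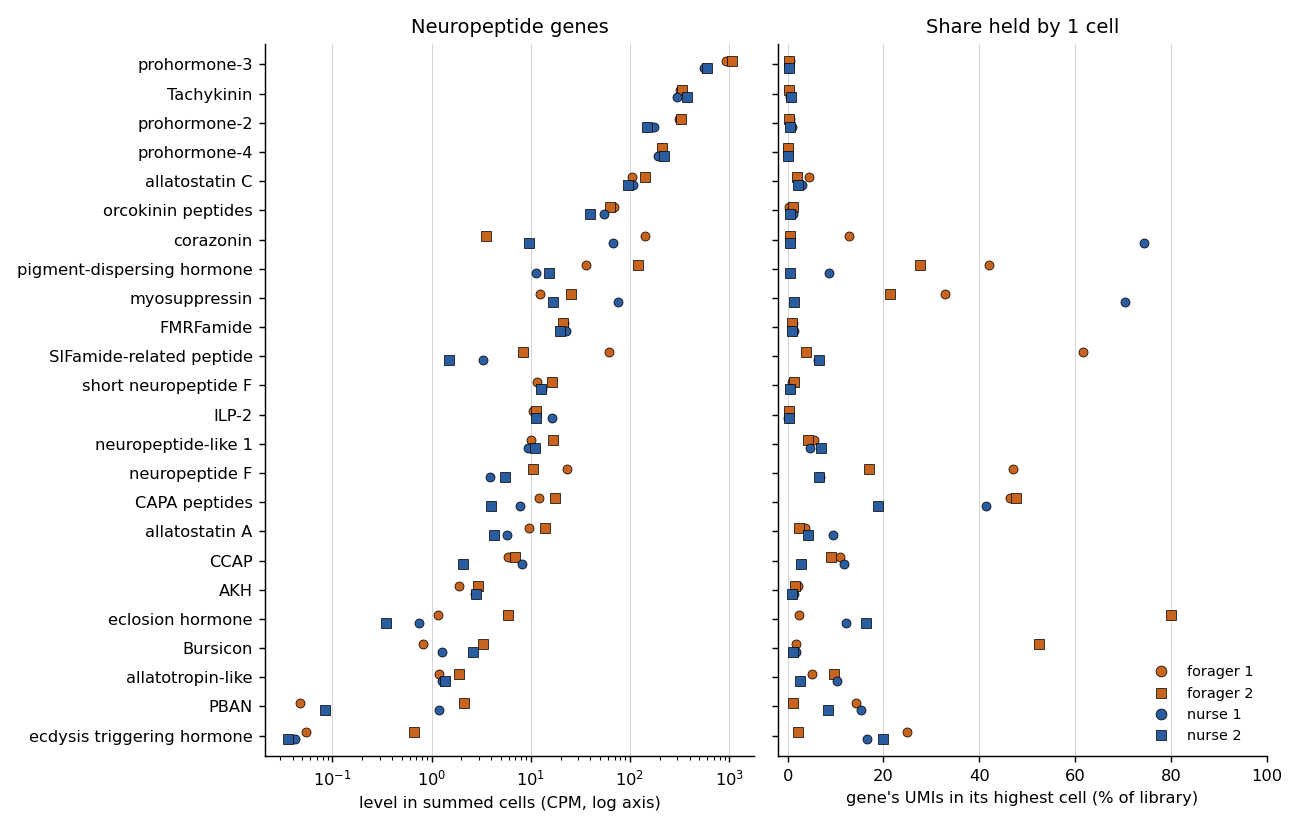
Left, level of the 24 neuropeptide genes in each worker library in CPM on a log axis. Right, the share of a gene's UMIs that its single highest cell held in each library, in percent. Abundant genes such as prohormone-3 lie near 0 on the right, whereas corazonin in the first nurse library lies at 74.4%.

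Of the 10 hormone and nutrient genes 8 were fitted above 0, beside 5397 of 11208 genes, with a median of 0.29. edgeR called none, with 6 at an unadjusted p under 0.05 (24.4% of all genes), and DESeq2 called *Kr-h1*. *Kr-h1*, a zinc finger gene that responds to juvenile hormone, was at 99.2 and 82.8 CPM in foragers and 20.0 and 38.8 CPM in nurses (log2 1.63 ± 0.30, adjusted p = 0.0511). The lowest forager value was more than the highest nurse value, though the nurse libraries themselves were far apart. *InR-2*, an insulin receptor, was at 9.83 and 9.88 CPM in foragers and 12.35 and 14.6 CPM in nurses (adjusted p = 0.167).

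*Hsc70-4*, a chaperone present in all cells, was at 2185 and 2055 CPM in foragers and 3606 and 3369 CPM in nurses (log2 -0.72, adjusted p = 0.0504). *Hsp90*, a further chaperone, was at 2943 and 2800 CPM against 4171 and 4030 CPM (log2 -0.51, adjusted p = 0.112). Of the 5 genes tested 4 were fitted below 0 with a median of -0.25, and the castes did not overlap in any, as in 59.6% of all genes. edgeR called none, with 3 at an unadjusted p under 0.05. DESeq2 called *Hsc70-4*. Both chaperones were found in nearly every cell, in 20603 and 21992 forager cells and in all kept nurse cells for *Hsc70-4*.

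Amine, fast transmitter and clock genes gave no edgeR call, with 7, 8 and 1 genes at an unadjusted p under 0.05. DESeq2 called 4 amine genes, 2 in each direction, and 2 fast transmitter genes, 1 in each direction. Of the 19 monoamine genes 7 were fitted above 0 and 12 below (median -0.16), and of the 22 fast transmitter genes 13 and 9 (median 0.02). *TyrR*, a tyramine receptor, was at 309 and 299 CPM in foragers and 234 and 195.5 CPM in nurses (adjusted p = 0.0566). The octopamine receptor gene *LOC412994* was at 59.6 and 58.3 CPM in foragers and 92.9 and 102 CPM in nurses (adjusted p = 0.0765). *Per*, a gene of the circadian clock, was at 41.6 and 37.3 CPM in foragers and 48.9 and 46.1 CPM in nurses (adjusted p = 0.327). The 2 immediate early genes matched by name, *LOC551232* (HR38) and *LOC726289* (AP-1), were at 136.5 to 181 CPM and 124 to 138 CPM with castes that overlapped.

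All 13 protein-coding genes of the mitochondrial genome were tested, and 11 were fitted above 0, with a median of 0.10 and a summed level of 30339 and 36731 CPM in foragers and 26708 and 25921 CPM in nurses. The summed levels of the castes did not overlap, but gene by gene this held for 5 of the 13, beside 59.6% of all genes. The cell filter on MT- features, which include these genes, removed 2040 and 3610 forager barcodes and 1346 and 1875 nurse barcodes. The 6 nuclear genes of oxidative phosphorylation had a median of 0.16, the 9 of glycolysis and glycogen -0.16, the 7 ribosomal protein genes 0.06 and the 6 fatty acid genes 0.08. edgeR called no gene of these lists, with 10 at an unadjusted p under 0.05, and DESeq2 called 2 ribosomal protein genes as nurse-higher and 1 fatty acid gene as forager-higher. Because names were known for only part of the genome, these lists cover few of the genes of each pathway.

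The 11 immune effectors summed to 69.6 and 140.8 CPM in foragers and 122.8 and 147.7 CPM in nurses, and the 8 tested hemolymph carriers to 479.6 and 608 CPM and to 534 and 532 CPM, so that the castes overlapped in both sums. *PPO*, the prophenoloxidase of hemocytes, was at 2.20 and 2.38 CPM in foragers and 4.35 and 5.30 CPM in nurses (log2 -1.07, adjusted p = 0.0493). Beside it, *hml* (*LOC411597*), the marker of hemocytes, was at 15.4 and 24.7 CPM in foragers and 26.3 and 29.5 CPM in nurses, and the part of hemocytes in *PPO* was not tested. *Hex110*, a storage protein of the hemolymph, was at 7.20 and 9.36 CPM against 3.105 and 2.45 CPM (log2 1.58, adjusted p = 0.0332), and its neighbour *TpnCIIa*, a troponin C gene that ends 104 bases before it on chromosome 11, was at 5.65 and 5.97 CPM against 1.78 and 1.37 CPM (log2 1.89, adjusted p = 0.0259). *Vg*, the egg yolk precursor that nurses carry in their blood, was at 0.972 and 0.455 CPM in foragers and 0.811 and 0.439 CPM in nurses. edgeR called none of the 11 immune genes, 8 hemolymph carriers and 4 honey enzyme genes tested, with 3, 3 and 1 at an unadjusted p under 0.05, and DESeq2 called *PPO* and *Hex110*.

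The markers of brain cell types bear on what the sums mix. The Kenyon cell markers *PLCe* and *Mblk-1* were at 5552 and 5435 CPM and at 4794 and 5195 CPM in foragers, against 4721 and 3873 CPM and 4023 and 3494 CPM in nurses. All 5 Kenyon markers were fitted above 0 (median 0.35, range 0.02 to 0.51), edgeR called none, with 2 at an unadjusted p under 0.05, and DESeq2 called *Foxp*. Their summed level was 12336 and 12457 CPM in foragers and 10661 and 9158 CPM in nurses. The 3 tested markers of olfactory projection neurons were above 0 too (median 0.58), at a summed level of 17.3 and 19.0 CPM against 12.3 and 12.1 CPM. All 3 had an unadjusted p under 0.05, edgeR called none, and DESeq2 called 1 as forager-higher. The 10 glial markers had a median of -0.10 with summed levels of 725 and 1090 CPM in foragers and 904 and 1179 CPM in nurses, the muscle list lay between 9.88 and 12.9 CPM and the photoreceptor list between 46.2 and 58.6 CPM. How far the share of Kenyon cells bears on the gene differences above was not tested. The levels by *PLCe* given for 4 of the genes do not test it, since nearly every worker cell held *PLCe* UMIs.

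Bulk libraries of pooled brains, 2 per caste, gave another readout of the same contrast from other samples, at 13135050 to 15177032 counts a library. Royal jelly protein genes took 1.51% and 9.79% of all counts in the bulk forager libraries and 41.8% and 26.1% in the bulk nurse libraries, against 0.00811% and 0.00863% in queens. *Mrjp1* had a bulk log2 fold change of -2.83 ± 1.13, *Mrjp2* of -3.52 ± 1.10, *Mrjp3* of -4.19 ± 1.20 and *Mrjp4* of -4.63 ± 1.08. The sign was that of the single cells, but the bulk forager libraries differed widely from each other (*Mrjp1* at 7210 and 64180 CPM), and adjusted p in edgeR was 0.195 to 0.349. DESeq2 called *Mrjp3* (adjusted p = 0.00872) and *Mrjp4* (adjusted p = 0.00183) in bulk, but not *Mrjp2* (0.0551) or *Mrjp1* (0.238). *Mrjp6* had the opposite order in bulk too, at 1323 and 881 CPM in foragers and 294 and 288 CPM in nurses. Its bulk log2 fold change was 1.92 ± 0.24 (edgeR adjusted p = 0.0492), and DESeq2 called it as forager-higher (adjusted p = 1.58e-12). In bulk 1 gene was called (0.0101% of 9932), *LOC726737*, at 330 and 419 CPM in foragers and 11.45 and 13.9 CPM in nurses. In the summed cells its log2 fold change was 1.24 (adjusted p = 0.177).

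Of the 9 called genes 8 had the same sign in bulk and 5 had an unadjusted bulk p under 0.05, the 4 royal jelly genes and *LOC102655536*. *LOC102654729*, the gene with the other sign, was at 1.10 and 1.60 CPM in bulk foragers and 1.385 and 1.52 CPM in bulk nurses. *LOC724752* had a bulk log2 fold change of 0.38 ± 0.23, *LOC100578445* of -0.29 ± 0.15, *LOC102654896* of -0.20 ± 0.47 and prohormone-2 (*LOC409314*) of -0.09 ± 0.27. *LOC102655536* had 1.90 ± 0.79 at 1.10 and 1.11 CPM against 0.277 and 0.303 CPM. Of the 127 genes with an adjusted p under 0.05 in the cells, 117 were tested in bulk, 72 had the same sign (61.5%, beside 53.6% of all 9773 genes in both) and 22 had an unadjusted bulk p under 0.05 (18.8%, beside 13.2%). *Hex110* was opposite, with a bulk log2 fold change of -2.77 ± 0.63.

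A pair of the 11 immune effectors, named after their values were seen, passed the looser threshold in bulk and was low in the cells. That threshold, an edgeR adjusted p under 0.05, held 20 genes in bulk (0.201% of 9932). *Apid1* (apidaecin) was at 443 and 621 CPM in bulk foragers and 11.8 and 17.7 CPM in bulk nurses (log2 5.17, adjusted p = 0.0105), but at 0.0612 to 0.113 CPM in all 4 single-cell worker libraries. *LOC408807* (IRP30), an immune-responsive gene, was at 2704 and 1905 CPM against 84.8 and 21.8 CPM in bulk (log2 5.44, adjusted p = 0.0492), and at 0.584 and 1.504 CPM against 0.231 and 0.276 CPM in the cells. Both were thus prominent in whole bulk brains of foragers and nearly undetected in the dissociated cells.

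**Figure D5:**
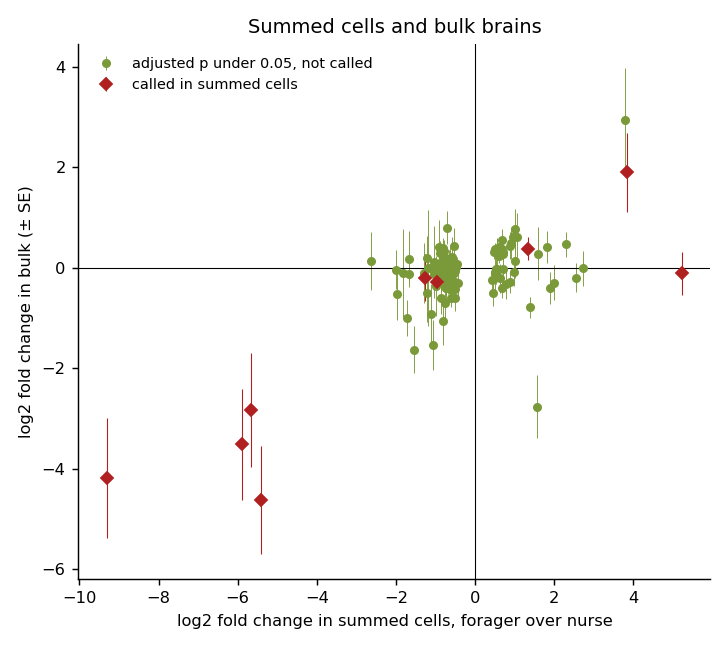
Log2 fold change, forager over nurse, in bulk brain (± SE of the edgeR fit) against that in summed cells, for the 117 genes with an adjusted p under 0.05 in the cells that bulk also tested. The 4 royal jelly genes lie low on the left, and 72 of the 117 have the same sign in both.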

How the data were processed

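Sums of UMI counts were compared between 2 forager and 2 nurse single-cell libraries. The authors ran Cell Ranger 3.1.0 on Amel_HAv3.1 and deposited raw UMI counts of 12292 features for the barcodes called as cells, without normalization. For bulk, the authors trimmed reads with Trimmomatic 0.39, aligned them with STAR and deposited RSEM expected counts, which were rounded here. The filter on MT- features covers 450 features, of which 13 lie on the mitochondrial genome. RefSeq symbols were found for 12262 features, and descriptions, from the study's gene tables, for 919. The lists were meant to be filled by RefSeq names, which the annotation used here lacks.

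Sums were tested with edgeR 4.0.16 in R 4.3.3: filterByExpr, TMM, and the two-sided quasi-likelihood test over 3 castes (residual degrees of freedom 3). The calls needed an adjusted p under 0.01 and a log2 fold change over 0.5 (bulk 1). DESeq2 1.42.0 was an alternative. SE is the fold change over the root of its F value. With 2 libraries a caste an exact permutation test of 1 value cannot go below p = 0.333. Levels within cells grouped by *repo* or *PLCe* are CPM of that group's own UMIs without TMM. No source says that replicates are separate colonies, so p-values measure the spread between these pools. Cell types were not assigned and doublets not removed. Python steps used numpy 2.4.6, pandas 2.3.3, scipy 1.17.1 and matplotlib 3.10.9. The fits were also run on counts simulated from the levels of these data, with a fitted or a small spread. Such counts cannot check the spread between bees.

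The genes and lists were chosen with earlier results of these data known. Named were, among called genes with a mean of at least 10 CPM and no overlap, the 10 of largest change and 5 of highest level in each direction. Fewer than 5 passed in each, so the 5 of smallest p filled in. Called members of lists and cell type markers were added.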

Additional observations from a re-analysis of the deposited data

How the results depend on the processing

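Of the 9 genes called in the summed cells all 9 were called with RLE factors, library totals (10 calls in all), no filter on low counts and the upper UMI limit, and 8 in cells without a *repo* UMI. The 4 worker libraries alone called 8 genes, 5 of them shared, without *LOC102654896*, *LOC100578445*, *LOC102654729* and *LOC102655536*. Mitochondrial-genome features only kept 6, without *LOC102655536*, *LOC102654729* and *LOC102654896*. edgeR called 5 with a minimum of 10 CPM, 5 over all barcodes and 0 without the royal jelly protein genes, and DESeq2 called 484. The 5 over all barcodes were all nurse-higher, and *LOC724752* then had a log2 fold change of 1.15 (edgeR adjusted p = 0.0229). Leaving out 1 library left 1 to 2 genes: *Mrjp3* alone without either nurse library, and *Mrjp2* and *Mrjp3* without either forager library. Without the highest cell of each gene, chosen after the data had been seen, 7 were called. Over the 11 named genes no alternative reversed a direction. In bulk, where 1 gene was called, edgeR called 3 in the 4 worker libraries and 10 with no filter, DESeq2 98, and leaving out 1 library gave 1 to 6 (6 without the second nurse library, 2 without the second forager library, and without the first nurse library 1 gene other than *LOC726737*). A replicate block left 2 genes in the summed cells, *Mrjp2* and *Mrjp3*, and 1 in bulk. Replicates share only a number, and the deviations of same-numbered forager and nurse libraries correlated at 0.23. With 2 libraries a caste, 1 estimate of spread over 3 castes enters every call of the main fit. The fit of the 4 worker libraries took its spread from foragers and nurses only.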

Other observations

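Of the 127 genes with an adjusted p under 0.05, 6 pairs were direct neighbours on a chromosome among the genes tested, and in all 6 both genes had the same sign, beside 52.9% of all 11183 neighbouring pairs. A pair was *LOC410979*, the GABA type B receptor gene, with *LOC113218721* (log2 -0.86 and -0.98), and another was *LOC725119* with *LOC725164* (log2 -0.61 and -0.75). The rest were *Mrjp3* with *Mrjp1*, *Mrjp1* with *Mrjp4*, *TpnCIIa* with *Hex110*, and *LOC551176* with *LOC725404*. The *Mrjp* pairs share *Mrjp1* and join copies of one another, so the 6 pairs are not independent. Pairs with 1 or both genes at an adjusted p under 0.05 numbered 248, and 55.2% of them had the same sign. Long noncoding RNAs were 16 of the 82 nurse-higher genes (19.5%) and 4 of the 45 forager-higher genes (8.89%), beside 14.5% of all genes tested. The 34 cells of the second nurse library with 5 or more *Mrjp1* UMIs carried *Mrjp3* at 687.65 CPM, *Mrjp2* at 560.45 CPM and *Def1*, the gene of the antimicrobial peptide defensin, at 179 CPM, against 10.7, 11.6 and 7.50 CPM in the remaining cells. *LOC406093* was at 1105 against 23.1 CPM there, and *LOC408551* (*vkg*), a marker of the glial list, at 493 against 37.4 CPM. These genes were chosen after their values were seen. The first nurse library had 25 such cells, under the minimum set for this comparison, so it gave no values.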
